A study of Arabidopsis thaliana with 13 samples.

Results

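The CC-type glutaredoxins of Arabidopsis thaliana were examined in the root across 5 genotypes. The 10 loci considered were AT1G06830, AT2G47880, AT2G47870, AT3G62950, AT3G62960, AT3G62930, AT3G21460, AT5G18600, AT1G03020 and AT2G30540. A locus was included when the platform's probe table gave it a probe set of its own, which held for 8 of the 10. AT2G47870 and AT3G21460 had no probe set under their names there and were not analysed here. In all the arrays carried 22810 probe sets.

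Glutaredoxins are small proteins that bind glutathione and carry a redox-active cysteine motif. The CC-type class, found in land plants, has adjacent cysteines in that motif, and several of its members bind TGA transcription factors in the nucleus. The products of AT1G06830 and AT2G47880 are known as CEPD1 and CEPD2 (CEP DOWNSTREAM). They are made in shoot phloem when the receptor CEPR1 perceives CEP peptides from nitrogen-starved roots, and they travel to the root, where they raise expression of the nitrate transporter gene NRT2.1. Other genes of the class respond to nitrate and cytokinin.

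Whole roots were taken from plants grown for 10 days at 22 °C, with 16 h of light and 8 h of dark, on MGRL medium with 0.1 mM KNO3, a low nitrate supply, and 1% sucrose. Col-0 and Ler (Landsberg erecta) were the wild types, with 3 arrays each. The mutant clv1-15, in the Ler background, carries a lesion in CLV1 (CLAVATA1), a leucine-rich repeat receptor kinase, and had 3 arrays. CLE3, a secreted signalling peptide of the CLE family, was overexpressed in the Col-0 background in lines 12-1 and 17-3 (CLE3ox), with 2 arrays each. The promoter used, any pooling of plants and the origin of the lines are not given in the sources used here, and each overexpression line is a single line. The titles call the arrays biological replicates without naming separate cultures, so the p-values measure the spread between these samples only.

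Signals are MAS5 values on a linear scale. Array medians were 189.8 to 200.1, and replicates of a group correlated at Pearson's r of 0.9867 to 0.9934 across tested probe sets, which are not independent replicates. The 3 of 8 listed root markers with a probe set summed to 19068.1 to 25189.7 over the arrays, and none was at 0. Fold changes are differences of log2(signal + 16) from limma, a scale that understates the change of low signals, and a probe set was called when its p, adjusted by Benjamini-Hochberg over 15922 tested probe sets, was under 0.05. The lowest 30% of probe sets by mean signal over all arrays, those up to a mean of 54.6, were not tested. Of the 8 glutaredoxin probe sets, 3 entered the test: AT1G06830, AT3G62960 and AT3G62930. Each of them had a mean above 54.6 in every group, so none entered through a single group. The other 5 had means over all arrays between 1.7 and 38.9 and are described by their values.

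**Figure D1:**
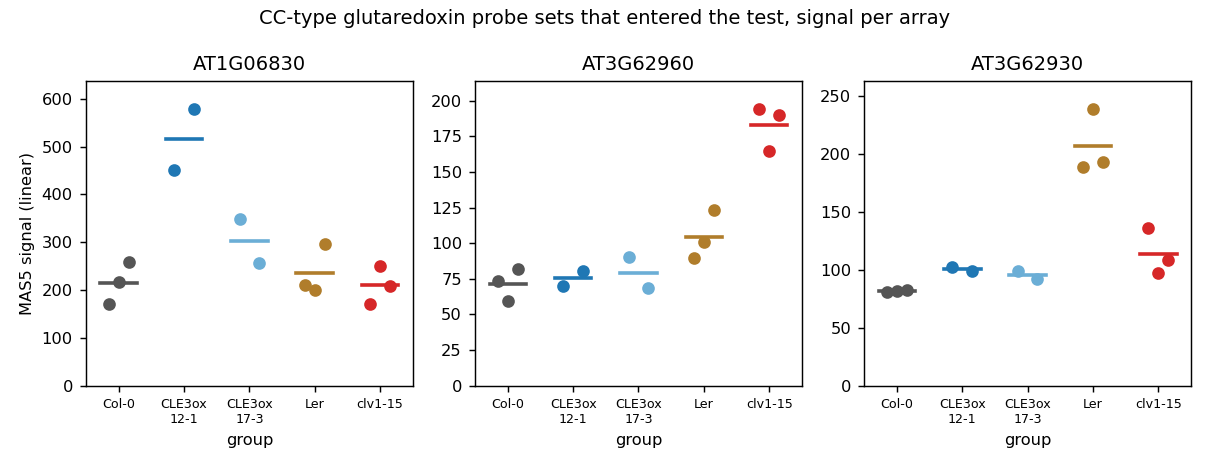
MAS5 signal (linear, from 0) of AT1G06830, AT3G62960 and AT3G62930 on each array, by genotype; points are arrays and bars group means. AT1G06830 was highest in CLE3ox line 12-1 (451.4 and 579.2), AT3G62960 in clv1-15 (164.8 to 194.5) and AT3G62930 in Ler (188.6 to 239).

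AT1G06830, the CEPD1 gene, was higher in roots of the CLE3 overexpression lines when averaged, with the larger value in line 12-1. Its signals in Col-0 were 171.7, 216.6 and 257.6. In line 12-1 they were 451.4 and 579.2, and in line 17-3 they were 349.5 and 256.6. Both arrays of line 12-1 lay above all Col-0 arrays, as was so for 13.5% of tested probe sets, whereas the second array of line 17-3 lay just under the highest Col-0 array. The mean of Col-0 was 215.3 ± 43.0 (SD, n = 3). Line 12-1 averaged 515.3 ± 90.4 (SD, n = 2), and line 17-3 averaged 303.1 ± 65.7 (SD, n = 2).

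Averaged over the lines, AT1G06830 rose 1.78-fold, or 0.84 ± 0.17 (SE) on the log2 scale, with a limma adjusted p of 0.012. It was the 1 called member of the 3 tested in this comparison, in which 2.45% of all tested probe sets were called and 1.06% were called higher. Line 12-1 alone rose by 1.21 ± 0.20, or 2.31-fold (limma adjusted p = 0.0099), where 0.433% of tested probe sets were called, 0.0879% higher. Line 17-3 alone differed from Col-0 by 0.47 ± 0.20 with an interval of 0.04 to 0.89 (limma adjusted p = 0.26). There 0 of the 3 members were called by limma and 1 had an unadjusted p under 0.05, against 3.34% of all tested probe sets called.

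Set directly against line 12-1, line 17-3 had a log2 difference of -0.74 ± 0.22 in AT1G06830, with an interval of -1.21 to -0.27. This did not pass (limma adjusted p = 0.32; unadjusted p = 0.004), and 0 of 3 members were called between the lines, 1 with an unadjusted p under 0.05, in a comparison that called 0.264% of tested probe sets. Both arrays of line 17-3 were nonetheless below both of line 12-1, as in 17.7% of tested probe sets. The comparisons of the lines with Col-0 share the Col-0 arrays. The SE of 0.17 for the mean of the lines leaves out this difference between them. With both lines as 1 group of 4 arrays, which counts it, the fold change remained 0.84 and the SE was 0.22 (limma adjusted p = 0.064).

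The call on AT1G06830 in CLE3ox depended on single arrays. Without the second array of line 12-1 the log2 fold change was 0.75 (limma adjusted p = 0.061), and without the first Col-0 array it was 0.69 (adjusted p = 0.085). It ran from 0.69 to 0.97, and its adjusted p from 0.0047 to 0.085, over every alternative tried apart from the spike-in groups described next. In line 12-1 the call ended without the second array of that line (1.03, limma adjusted p = 0.28), where the spread of the 1 array left is borrowed from the remaining groups.

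**Figure D2:**
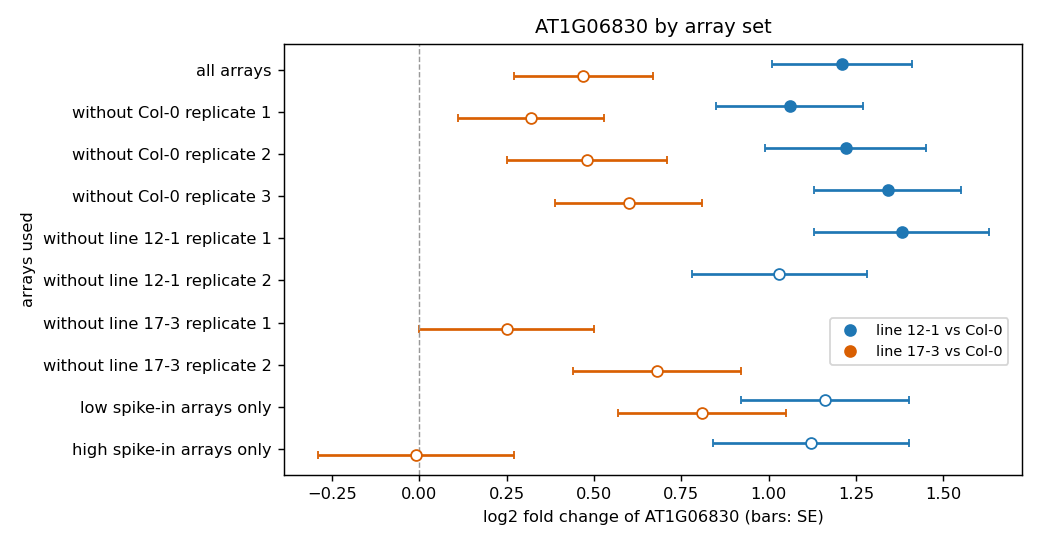
Log2 fold change of AT1G06830 in each CLE3 overexpression line against Col-0 (x axis; bars are SE) for all arrays, with each array left out in turn, and within each spike-in group; filled points have an adjusted p under 0.05. Line 12-1 stays between 1.03 and 1.38 in all sets shown, while line 17-3 runs from -0.01 to 0.81.

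A hybridisation control also varied among these arrays. The bioD spike-in signal was 3894.3 to 4092.7 on the second array of each overexpression line and the third of Col-0, and 2700.2 to 3241.1 on the other 10 arrays, a grouping made after the data were seen that no label gives. Each line had 1 array in each of these spike-in groups. Within the low one AT1G06830 differed from Col-0 by 1.16 in line 12-1 and 0.81 in line 17-3, and within the high one by 1.12 and -0.01. These values rest on 1 array of a line each, none was called, and no difference between the spike-in groups was tested. With the spike-in group as a block the mean of the lines was 0.81 ± 0.17 (limma adjusted p = 0.014).

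Of 6 listed phloem markers 2 had a probe set, and none was at 0 in any group. Their summed signal was 255.6 to 487.8 in Col-0, 539.4 to 669.1 in line 12-1 and 649.4 to 748.1 in line 17-3. SWEET11, a sucrose transporter gene, rose by 0.92 ± 0.18 over both lines (limma adjusted p = 0.0098), and OPS, a regulator of protophloem, differed by 0.03 (adjusted p = 0.96). The 2 leaf markers measured of 5, RCA and LHCB4.1, summed to 701.7 to 773.9 in Col-0, 673.8 to 800.8 in line 12-1 and 1006.2 to 1022.9 in line 17-3. The part of the phloem and leaf markers in the glutaredoxin values was not tested. In whole roots, fewer cells of a type and less RNA per cell cannot be told apart.

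In the Ler background AT1G06830 showed no called difference. Its signals were 211, 200.6 and 295.4 in Ler and 171.3, 250.4 and 209 in clv1-15, and the groups overlapped. The log2 fold change was -0.15 ± 0.18 with an interval of -0.53 to 0.23 (limma adjusted p = 0.61). Col-0 against Ler gave -0.12 ± 0.18 (adjusted p = 0.61). Ordered by mean, AT1G06830 was at 210.2 in clv1-15, 215.3 in Col-0, 235.7 in Ler, 303.1 in line 17-3 and 515.3 in line 12-1. Each neighbouring pair in that order overlapped, except line 17-3 and line 12-1.

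AT2G47880, the CEPD2 gene, was under the filter, with 18.7 to 59.1 over all arrays. It read 48.4, 43.9 and 18.7 in Col-0, 59.1 and 54.1 in line 12-1, 34.2 and 35.4 in line 17-3, 32.9, 26.3 and 23.8 in Ler, and 42.8, 47.7 and 38.7 in clv1-15. Line 12-1 was again above all Col-0 arrays and above line 17-3, and clv1-15 was above all Ler arrays. Without the filter, 12.5%, 16.4% and 12.7% of all probe sets showed these 3 patterns. In a fit without the filter these differences did not pass: 0.50 ± 0.24 for line 12-1 against Col-0 (limma adjusted p = 0.66) and 0.44 ± 0.21 for clv1-15 against Ler (adjusted p = 0.23). That fit called 0.237% of probe sets in line 12-1 and 8.85% in clv1-15. At such signals, noise of a few units is a large share of the value.

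AT3G62960 and AT3G62930 lie close together on chromosome 3 with AT3G62950, and changed in opposite directions in clv1-15. In the TAIR10.1 annotation AT3G62950 and AT3G62960 are neighbours with 0 genes between them, and 2 annotated genes, AT3G62950 among them, separate AT3G62930 from AT3G62960. All 3 encode glutaredoxins of the CC type, and AT3G62950 was under the filter. AT2G47870 and AT2G47880 are likewise neighbours on chromosome 2, but AT2G47870 was not analysed here.

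AT3G62960 read 89.4, 100.7 and 123.5 in Ler and 194.5, 164.8 and 190.2 in clv1-15. Every mutant array lay above every Ler array. The mean went from 104.5 ± 17.4 (SD, n = 3) to 183.2 ± 16.1 (n = 3), a rise of 0.73 ± 0.15 on the log2 scale or 1.66-fold (limma adjusted p = 0.0047). Under the alternatives that kept it in the test, the fold change ran from 0.56 to 0.84 and the adjusted p from 0.0024 to 0.027.

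AT3G62930 read 188.6, 239 and 193.1 in Ler and 136.4, 97.3 and 108.3 in clv1-15. Every mutant array lay below every Ler array. The mean was 206.9 ± 27.9 (SD, n = 3) in Ler and 114.0 ± 20.2 (n = 3) in clv1-15, so that it fell by 0.78 ± 0.13 on the log2 scale and was 1.72-fold lower (limma adjusted p = 0.0012). Its adjusted p ran from 0.00082 to 0.008 under the alternatives that kept it in the test. The 2 calls, among 3 members tested, stand in a comparison in which 15.4% of tested probe sets were called, 6.93% higher and 8.44% lower. Arrays that did not overlap were found in 14.7% of tested probe sets with clv1-15 higher and in 20.0% with it lower.

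The markers also differed between these groups. The leaf marker sum was 912 to 1247.1 in Ler and 1436.9 to 1579.5 in clv1-15, with RCA and LHCB4.1 both higher (0.49, limma adjusted p = 0.014, and 0.43, adjusted p = 0.0065). The phloem marker sum was 616.2 to 775.9 in Ler and 268.8 to 310.2 in clv1-15, where SWEET11 fell by 1.38 (adjusted p = 0.00024) and OPS had -0.58 (adjusted p = 0.056). Of the root markers, EXPA18, an expansin gene of root hair cells, rose by 0.68 (adjusted p = 0.00059), EXPA7 had 0.24 (adjusted p = 0.085) and PYK10 had 0.12 (adjusted p = 0.29). None of these markers was at 0 in any group, and their part in the glutaredoxin changes was not tested.

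Neither gene of the chromosome 3 group was called in CLE3ox. AT3G62960 read 73.4, 59.7 and 82 in Col-0, 70.2 and 80.4 in line 12-1 and 90.4 and 68.3 in line 17-3. These groups overlapped, and the log2 fold change over both lines was 0.09 ± 0.14 with an interval of -0.21 to 0.39 (limma adjusted p = 0.83). AT3G62930 read 81.2, 82 and 82.7 in Col-0, 102.1 and 99.3 in line 12-1 and 99.2 and 91.6 in line 17-3. All 4 overexpression arrays were above all Col-0 arrays, as was so for 6.54% of all tested probe sets, but the difference was small and not called (0.22 ± 0.12, interval -0.05 to 0.48, adjusted p = 0.45). The 3 Col-0 arrays of this gene agreed to an SD of 0.8, while limma moderates its spread towards that of probe sets with a like mean.

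The wild types differed in both genes. AT3G62930 was 2.26-fold lower in Col-0 than in Ler (-1.18 ± 0.13, limma adjusted p = 3.4e-06), and AT3G62960 was 1.37-fold lower (-0.46 ± 0.15, adjusted p = 0.022). All Col-0 arrays lay below all Ler arrays in both, as in 30.1% of tested probe sets. These Col-0 and Ler arrays are also the controls of the comparisons above. The call on AT3G62960 ended without the second Col-0 array (-0.36) or the third Ler array (-0.35), each with an adjusted p of 0.1. These are 2 of 3 tested members in a comparison that called 45.7% of tested probe sets and called 24.5% lower in Col-0. The probes of this array were designed on Col-0 sequence, and the part of probe sequence in these differences was not tested.

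Cell type markers differed between the wild types as well. SWEET11 and OPS were lower in Col-0 (-0.78, limma adjusted p = 0.0036, and -1.22, adjusted p = 0.00011), and the phloem marker sum was 255.6 to 487.8 in Col-0 against 616.2 to 775.9 in Ler. RCA was lower by -1.04 (adjusted p = 6.1e-06) and LHCB4.1 had 0.05 (adjusted p = 0.68). The root markers EXPA7 and EXPA18 were higher in Col-0 by 1.07 and 1.29 (adjusted p = 1.5e-07 and 8.1e-08), and PYK10 was lower by -0.25 (adjusted p = 0.011). Their part in the differences of AT3G62960 and AT3G62930 was not tested.

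The order of AT3G62930 by mean was 82.0 in Col-0, 95.4 in line 17-3, 100.7 in line 12-1, 114.0 in clv1-15 and 206.9 in Ler. The Col-0 arrays lay below those of line 17-3. The clv1-15 arrays overlapped those of line 12-1 and of line 17-3, but not those of Ler. The nearest arrays of the 2 overexpression lines, 99.2 and 99.3, were practically equal. For AT3G62960 the order was 71.7 in Col-0, 75.3 in line 12-1, 79.3 in line 17-3, 104.5 in Ler and 183.2 in clv1-15. Only clv1-15 stood apart from its neighbour in that order, since the lowest Ler array, 89.4, lay under the highest of line 17-3, 90.4.

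**Figure D3:**
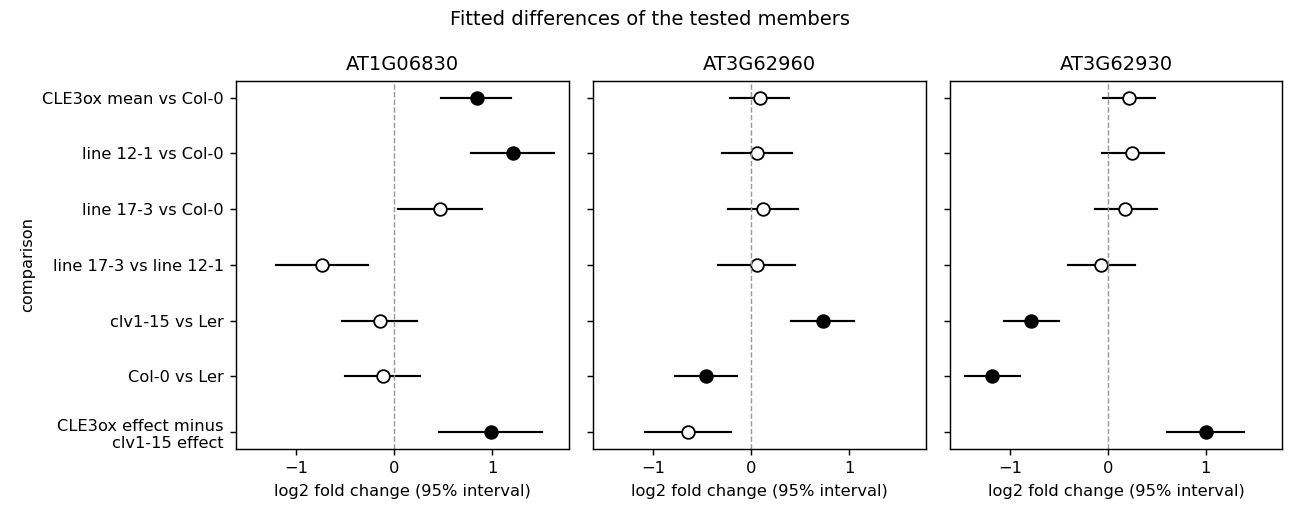
Log2 fold change (x axis, bars are 95% intervals) of the 3 tested glutaredoxin genes in 7 comparisons; filled points have an adjusted p under 0.05. AT1G06830 was called in CLE3ox and line 12-1, AT3G62960 and AT3G62930 in clv1-15 and between the wild types. In the difference of effects AT1G06830 and AT3G62930 were called.

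The CLE3ox and clv1-15 effects, which share no arrays, were compared by their difference in the same fit. It was 0.99 ± 0.25 for AT1G06830 (limma adjusted p = 0.018), which rose in CLE3ox and had -0.15 in clv1-15. It was 1.00 ± 0.18 for AT3G62930 (adjusted p = 0.0026), with 0.22 in CLE3ox and a fall of 0.78 in clv1-15. For AT3G62960 it was -0.64 ± 0.21 (adjusted p = 0.058), and the adjusted p ran from 0.035 to 0.14 over the alternatives. It passed with a pseudocount of 64 (-0.50, adjusted p = 0.035), with median centring or quantile normalization (0.0498 and 0.0496), with eBayes without a trend (0.043), and without the first array of line 17-3 (0.04), the second of Col-0 (0.044) or the last of Ler (0.04). So 2 of 3 tested members were called, in a comparison that called 11.2% of tested probe sets, 5.74% with the CLE3ox effect higher. The call on AT1G06830 ended without the first Col-0 array (0.84, adjusted p = 0.053) and with the lines as 1 group (0.99, adjusted p = 0.055).

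Among the remaining genes under the filter, AT2G30540 read higher in the Ler background. It was 37.1, 43 and 29.1 in Ler and 41.2, 57.7 and 59.6 in clv1-15. It was 9.5, 20.7 and 4.9 in Col-0, 4.4 and 19 in line 12-1 and 3.1 and 11.3 in line 17-3. All 6 arrays in the Ler background were above all 7 in the Col-0 background, as in 8.19% of all probe sets without the filter. In the fit without the filter, Col-0 was lower than Ler by -0.95 ± 0.26 (limma adjusted p = 0.011), where 32.5% of 22746 probe sets were called, 17.0% lower. In the same fit clv1-15 against Ler had 0.39 ± 0.26 (adjusted p = 0.4) and the mean of the lines against Col-0 had -0.13 ± 0.24 (adjusted p = 0.89), in a comparison that called 1.35%.

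AT5G18600, AT1G03020 and AT3G62950 gave no more than low and scattered signals. AT5G18600 ranged from 1.7 to 36.7 and AT1G03020 from 1.2 to 28.3 over the 13 arrays, with spreads inside a group as wide as those between groups. In line 17-3, for example, the arrays of AT5G18600 read 3.4 and 36.7, and in Col-0 AT1G03020 read 1.2, 1.4 and 22.4. AT3G62950 stayed between 0.4 and 7.1, its highest value being the second array of line 12-1. Detection calls were not used here, so whether these transcripts are present in the root cannot be read from these values.

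**Figure D4:**
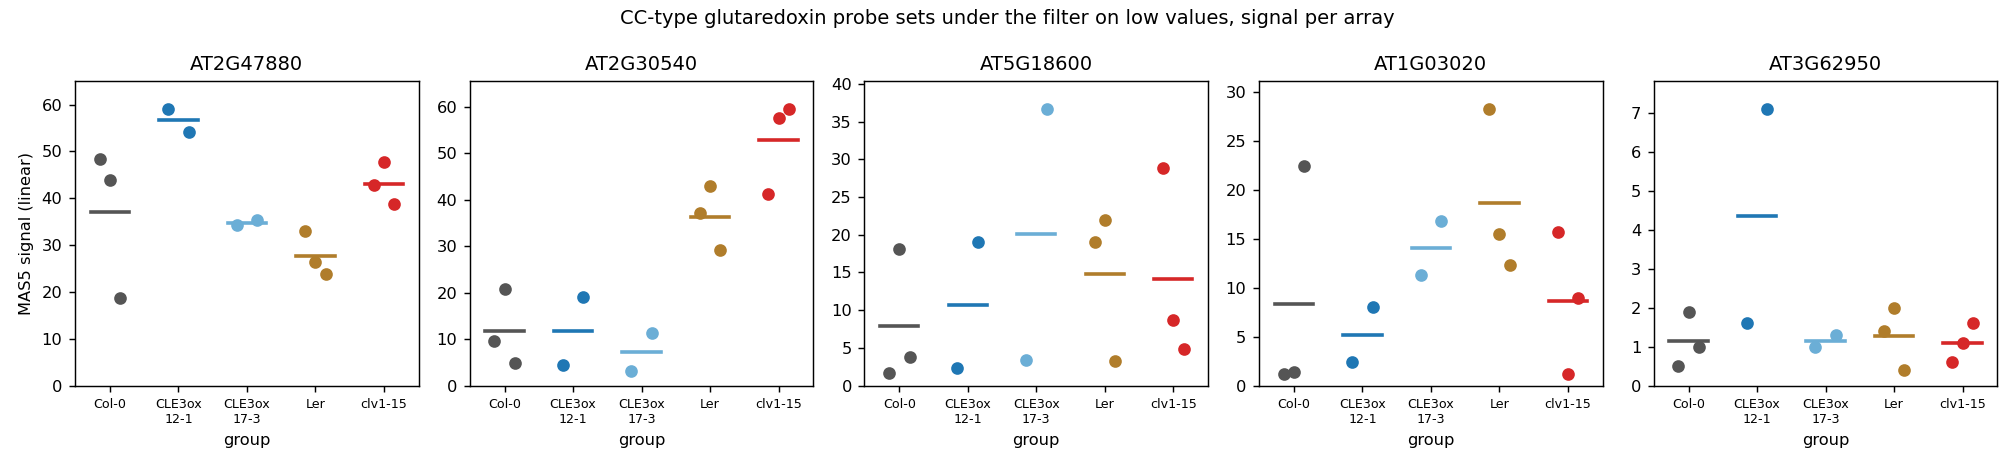
MAS5 signal (linear, from 0; each panel has its own scale) of the 5 glutaredoxin probe sets under the filter, by array and genotype; points are arrays and bars group means. The 6 Ler-background arrays of AT2G30540 sit at 29.1 to 59.6, above the Col-0-background arrays at 3.1 to 20.7, while AT5G18600 and AT1G03020 overlap between wild types and scatter within groups.

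The signals of the 3 tested members were weakly related. Over the 13 arrays Pearson's r of log2 signals was -0.33 between AT1G06830 and AT3G62960, -0.19 between AT1G06830 and AT3G62930, and 0.32 between the chromosome 3 genes, as descriptions over arrays that share genotypes. The named probe sets most like AT1G06830, among 8734 compared over 13 arrays, were AT5G01780 (r = 0.84), the sucrose transporter gene SWEET13 (0.83) and AT1G61930 (0.81). For AT3G62960 they were AT2G35680 (0.96), AT2G37120 (0.94) and AT3G48510 (0.94), and for AT3G62930 they were AT2G23910 (0.97), AT1G51540 (0.97) and AT3G52040 (0.96). With group means removed, r with AT1G06830 was 0.45 for AT5G01780, 0.68 for SWEET13 and 0.88 for AT1G61930. With AT3G62960 it was 0.66 for AT2G35680, 0.34 for AT2G37120 and 0.79 for AT3G48510. With AT3G62930 it was 0.58 for AT2G23910, 0.90 for AT1G51540 and 0.59 for AT3G52040. These pairs were chosen by r over the same 13 arrays, so the values are a description and no separate check.

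Of the 11 other CC-type glutaredoxins 9 had a probe set and 5 entered the test. In CLE3ox limma called 0 of 5 (2 with an unadjusted p under 0.05), where 2.45% of all tested probe sets were called. The median log2 fold change was -0.13 against 0.01 over all tested probe sets. In clv1-15 limma called 0 of 5 (1 unadjusted), where 15.4% of all tested probe sets were called, with a median of 0.24 against -0.02. ROXY2, which acts with ROXY1 in anther development, read 99.3 to 127.1 in Col-0, 69.3 and 95.3 in line 12-1, 35.8 and 86.3 in line 17-3, 62.2 to 90 in Ler and 105.4 to 145.3 in clv1-15. Its values were -0.60 ± 0.20 in CLE3ox (limma adjusted p = 0.15) and 0.63 ± 0.22 in clv1-15 (adjusted p = 0.059), neither called. The difference of these effects, not examined under other settings or without single arrays, was called at -1.23 ± 0.30 (limma adjusted p = 0.015). It was the 1 call of 5 there, where 11.2% of all tested probe sets were called.

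AT5G11930 was higher in Col-0 than in Ler by 0.57 ± 0.13 (limma adjusted p = 0.0026), the 1 call of 5 in that comparison, where 21.2% of all tested probe sets were called higher. AT4G33040 had -0.37 ± 0.14 in CLE3ox (adjusted p = 0.19) and 0.24 ± 0.15 in clv1-15 (adjusted p = 0.28). In the chromosome 4 cluster of nitrate-responsive CC-type genes, 4 probe sets were all under the filter. AT4G15700 among them ranged from 0.3 to 10.7.

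The CPYC and CGFS glutaredoxins, the classes shared with other organisms, had 5 of 10 genes with a probe set, all of the CPYC class and all tested. Limma called 0 of 5 in CLE3ox (1 with an unadjusted p under 0.05) and 0 of 5 in clv1-15 (0 unadjusted), with medians of 0.07 and 0.06. These comparisons called 2.45% and 15.4% of all tested probe sets. GRXS12, of the chloroplast, had 0.30 ± 0.10 in CLE3ox (adjusted p = 0.16), and GRXC3 had 0.04 ± 0.11. GRXC1 and GRXC2 were higher in Col-0 than in Ler by 0.48 ± 0.10 (limma adjusted p = 0.00076) and 0.32 ± 0.09 (adjusted p = 0.01). They were 2 calls of 5, where 21.2% of all tested probe sets were called higher.

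**Figure D5:**
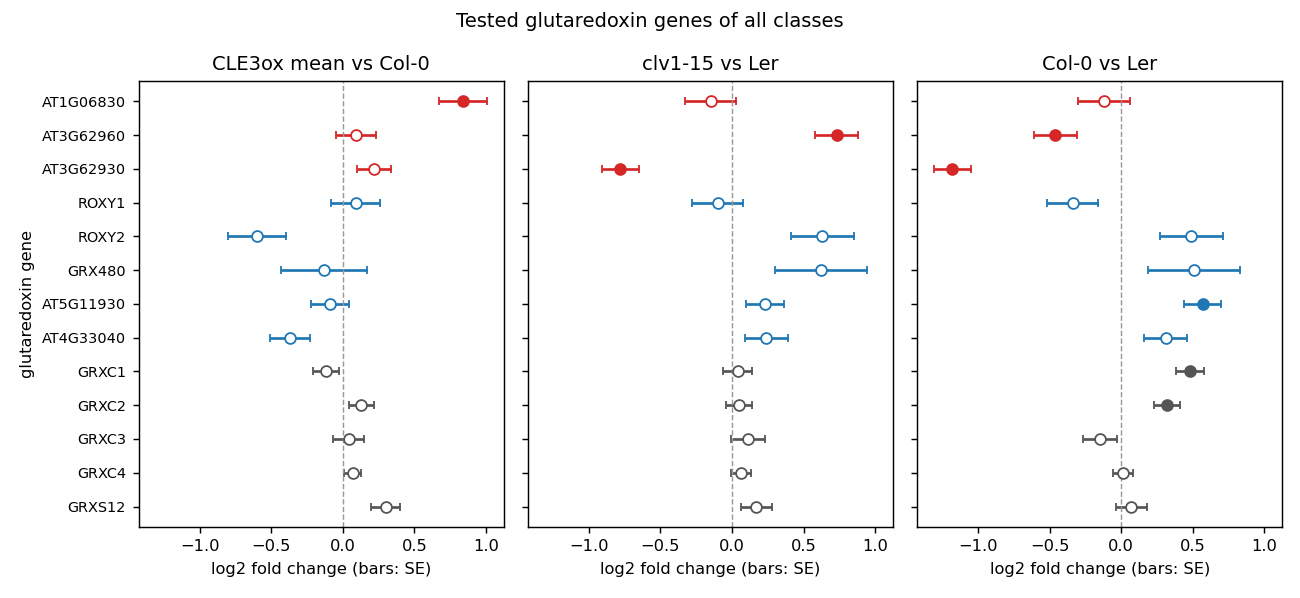
Log2 fold change (x axis, bars are SE) of the 13 tested glutaredoxin genes in 3 comparisons, with the genes described here in red, other CC-type genes in blue and the CPYC class in grey; filled points have an adjusted p under 0.05. AT1G06830 was the 1 called in CLE3ox, and AT3G62960 and AT3G62930 the 2 called in clv1-15.

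Few genes of the surrounding pathways could be measured by name. None of the 11 listed TGA factors and TOPLESS had a single-gene probe set (0 of 11), and 3 of 16 nitrate and CEP signalling genes did, without NRT2.1 or CEPR1. CEP3 encodes a CEP peptide induced by nitrogen limitation. It read 50.3 to 63.1 in Ler, 88.6 to 117 in clv1-15 and 97.7 to 127.6 in Col-0. In clv1-15 against Ler it rose by 0.68 ± 0.16 (limma adjusted p = 0.0092), the 1 of 3 called there. That comparison called 15.4% of all tested probe sets, 6.93% higher. Limma called 0 of 3 in CLE3ox (0 with an unadjusted p under 0.05), where 2.45% of all tested probe sets were called. CEP3 had -0.02, CEP5 had 0.23 and NRT2.5, a nitrate transporter gene of starved roots, had -0.29 (limma adjusted p = 0.97, 0.39 and 0.45). The type-A response regulators, which are induced by cytokinin, had 2 of 10 measured, ARR15 and ARR16. Limma called 0 of 2 in CLE3ox and in clv1-15 (0 unadjusted in each), against 2.45% and 15.4% of all tested probe sets. The values were 0.01 and -0.06 in CLE3ox and -0.03 and 0.34 in clv1-15.

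All 5 of these pathway genes were higher in Col-0 than in Ler, from 0.61 for CEP5 (limma adjusted p = 0.00097) to 1.99 for NRT2.5 (adjusted p = 2.3e-07). AT3G62960 and AT3G62930 were lower in the same comparison. The comparison called 21.2% of tested probe sets higher in Col-0, and for signals higher in Col-0 a transcript level and weaker binding of Ler transcripts to Col-0 probes cannot be told apart.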

How the data were processed

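Root RNA was hybridised to 13 ATH1 arrays. The values are the authors' deposited intensity (MAS5 signal, linear), processed with MAS5 per the submitters' processing notes, with no version given. Per array, the mean with 2% trimmed at each end was the same. No arrays were identical, and 0 columns lacked a sample. The number of arrays limits the precision.

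log2(signal + 16) was fitted with limma 3.58.1 in R 4.3.3 over 5 groups (eBayes with a trend, Benjamini-Hochberg over 15922 probe sets), after 64 control probe sets and the lowest 30% were left out. The fit was tested on simulated data with independent noise on each array. Those data held no spike-in groups, so that test does not cover them. Alternatives were other pseudocounts (1, 64), filters (none, 50%), scalings, variance priors, array weights, a replicate block, the groups of a comparison alone, the lines as 1 group and each array left out. Their fold changes were examined for the tested loci of the rule, and not for the other genes named.

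The probe table gives 13513 probe sets 1 gene, 503 several and 8794 none; 13436 single-gene sets matched TAIR10.1 by gene ID. Named genes are all measured glutaredoxin loci, up to 4 per list by smallest p, and the 3 most like each called locus. Loci and lists were chosen with earlier results of these data known. No sequence was printed, since no sequence table was used here.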

Additional observations from a re-analysis of the deposited data

Results flagged for a closer look

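The effects of CLE3 overexpression and of clv1-15, each against its own wild type, differed for AT1G06830 by 0.99 ± 0.25 on the log2 scale (limma adjusted p = 0.018), with 0.84 in CLE3ox and -0.15 in clv1-15. They differed for AT3G62930 by 1.00 ± 0.18 (limma adjusted p = 0.0026), with 0.22 in CLE3ox and -0.78 in clv1-15. The comparison called 11.2% of all tested probe sets. The call on AT1G06830 ended without the first Col-0 array (0.84, limma adjusted p = 0.053) and with the lines as 1 group (limma adjusted p = 0.055). Groups of 2 or 3 arrays are too small to tell whether a single array is an outlier.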

How the results depend on the processing

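Over 139 recomputed counts of called members, 116 equalled the reported one. With both lines as 1 group, 0 members instead of 1 were called in CLE3ox and 1 instead of 2 in the difference of effects. Within the low or the high spike-in arrays, chosen after seeing the data, 0 were called in CLE3ox and 0 in line 12-1. With the lowest 50% left out, AT3G62960 and AT3G62930 are no longer tested, which leaves 0 calls in clv1-15, 0 between the wild types and 1 in the difference of effects. Leaving out 1 array gave 0 to 1 calls in CLE3ox, 0 to 1 in line 12-1, 1 to 2 between the wild types, 1 to 3 in the difference of effects and 2 to 2 in clv1-15. The calls on AT3G62960 and AT3G62930 in clv1-15 held under each alternative in which they were tested.

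Signs turned only in values that were never called. Without 1 array, AT1G06830 ran from -0.25 to 0.04 for Col-0 against Ler (0.02 without Col-0 replicate 1, 0.04 without Ler replicate 3) and from -0.27 to 0.01 for clv1-15. AT3G62960 ran from -0.04 to 0.15 in line 12-1 (-0.02 without its second array), from -0.05 to 0.29 in line 17-3, from -0.11 to 0.22 between the lines (-0.03 without the first array of line 12-1), and was at -0.01 in CLE3ox without the second Col-0 array. Within the high spike-in arrays AT1G06830 had -0.01 in line 17-3, and AT3G62960 had -0.12 in CLE3ox, -0.02 in line 12-1, -0.22 in line 17-3 and -0.19 against line 12-1. The cause was not tested.

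The replicate numbers were not taken to pair the arrays. Deviations of same-numbered arrays correlated at 0.02, 0.18 and 0.11 for clv1-15 and Ler, and at 0.23 and 0.17 against -0.18 and -0.19 for Col-0 with either line. The value was 0.30 for line 12-1 with line 17-3, whose second arrays also share the high bioD signal. With 2 arrays per line the deviations mirror each other. Both pairs therefore give the same value by construction, which cannot settle a pairing. With the replicate block the calls were 1 in CLE3ox, 1 in line 12-1, 2 in clv1-15, 2 between the wild types and 2 in the difference of effects, and AT1G06830 had 0.93 in CLE3ox (limma adjusted p = 0.0058).

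Over all tested probe sets the calls in CLE3ox were 390, 209 to 378 without 1 array, and 64 and 55 within the low and high spike-in arrays. In line 12-1 they were 69, 25 to 54 without 1 array, 127 with array weights, and 16 and 20 within the spike-in groups. In line 17-3 they were 531, 187 to 429 without 1 array, and 116 and 103. Between the lines they were 42, 13 to 46 without 1 array, 20 with those groups alone, and 2 and 1. In clv1-15 they were 2447 and 1507 to 1895 without 1 array, with 45.1% higher, against 55.6% with each array centred on its median. In the difference of effects they were 1788 and 1155 to 1755 without 1 array. Signals near the floor limit what can be said of the 5 untested genes.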
